A study of Mus musculus with 8 samples.

Results

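A group of 10 genes that encode secreted signals, or an enzyme that makes one, was followed in serum-starved NIH3T3 cells, out of 20030 gene names with an mRNA probe on the array. They were the chemokines Cxcl1, Cxcl2, Cxcl12, Ccl2 and Ccl7, the cytokines Il6, Lif, Il11 and Csf1, and Ptgs2, which encodes the prostaglandin-forming enzyme cyclooxygenase 2. They were chosen by name, with earlier results of these data known, and all 13 probes that the array assigns to these names were read. Counts and medians of the group set beside those of all probes are therefore a description. NIH3T3 is an immortalised line of mouse embryonic fibroblasts. Cells were grown in 10% newborn bovine serum and kept in 0.5% serum for 24 h before any addition. One group of 3 arrays was given 20 µM cordycepin in DMSO for 90 min, with fresh serum added for the last 30 min. The second group of 3 arrays was given the vehicle, 0.1% DMSO, and the same 30 min of serum. The third group of 2 arrays was starved and was given no serum. Whether these cells were given DMSO is not said for each array. No array held cells given cordycepin without serum, so cordycepin was measured on top of serum alone. Cordycepin is 3′-deoxyadenosine, an analogue of adenosine that an RNA chain cannot be extended from once it is built in.

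Chemokines are small secreted proteins that guide migrating cells. Those of the CXC family named here act mainly on neutrophils (Cxcl1 and Cxcl2, through the receptor Cxcr2) or on stem cells, lymphocytes and other cells that carry Cxcr4 (Cxcl12), while the CC chemokines Ccl2 and Ccl7 attract monocytes through Ccr2. Il6, Lif and Il11 belong to one cytokine family and signal through receptors that share the subunit gp130, encoded by Il6st. Csf1 is the growth factor of macrophages and acts on the receptor Csf1r. Fibroblasts that meet serum or wound signals are known to switch on a wave of immediate early genes within minutes, and Ptgs2 and Cxcl1 are textbook members of that wave. Their promoters are known targets of transcription factors of the NF-κB, AP-1 and CREB families, and many of their mRNAs are short-lived.

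Values are normalised log2 intensities, that is, the log2 of the processed signal minus the 75th percentile of the same array. They compare 1 probe between arrays and not 1 gene with another. The 75th percentile of the processed signal lay between 350.5 and 802.2, between 51.1 and 57.1% of the probes of an array were well above background, and no spot was saturated. All 8 fibroblast markers examined, such as Col1a1, Col1a2, Vim and Pdgfra, were well above background on all 8 arrays. Of the 6 leukocyte markers on the array, Cd68, Itgam and Cd14 were well above background on all 8 arrays, Lyz2 on 4, Ptprc on 3 and Adgre1 on 1. Of the 4 endothelial markers, Pecam1, Kdr and Tek were above background on all 8 arrays and Cdh5 on 0. Of the 4 epithelial markers, Krt8 was above background on 7 arrays, Epcam on 1, and Cdh1 and Krt18 on 0. All 8 arrays lay on 1 slide, and they correlated across all probes with r between 0.988 and 0.992 within groups.

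In this group 3 of the 10 genes rose with serum, 2 fell when cordycepin was given before serum, and Ptgs2 was the one gene that did both. Of the 10 genes, 9 could be tested with limma, and a gene was called where its adjusted p was under 0.05 and its log2 difference reached 1 in size. With serum against no serum, Ptgs2, Cxcl1 and Lif were called higher and 0 genes lower, while 0.849% of the 30859 probes tested were called higher and 0.878% lower. The genes were put together as serum-induced, and after 30 min of serum that description held for 3 of the 9 tested genes and was not shown for the other 6. For Lif the serum call was lost in 5 of 19 alternative settings, while those of Ptgs2 and Cxcl1 held in all. With cordycepin plus serum against serum, Ptgs2 and Ccl7 were called lower and 0 genes higher, against 2.87% of all probes called lower and 7.63% called higher. With cordycepin plus serum against no serum, Cxcl1 was called higher and Ccl7 lower, against 6.48% and 2.99% of all probes. At the adjusted p alone, with no minimum difference, 5 of the 9 genes were lower with cordycepin (Ptgs2, Ccl7, Csf1, Ccl2 and Lif) and 0 were higher, where 7.36% of all probes were lower and 12% higher by the same rule. Csf1 was counted by its brightest probe, while its other probes gave 0.07 and 0.12. In this comparison Lif missed the adjusted p in 8 of 19 alternatives and Ccl7 in 1 of 19. With an unadjusted p under 0.05 and the minimum difference, the counts of 0 for genes higher with cordycepin plus serum against serum and lower with serum remained 0. By that rule 7.94% of all probes were higher and 3.09% lower for cordycepin plus serum against serum, 1.27% and 1.98% for serum against no serum. Where cordycepin plus serum was compared with no serum, these shares were 7.01% and 3.52%. The median log2 difference of the 9 genes was -0.63 for cordycepin plus serum against serum, where the median over all probes was 0.10. That median is the value of Lif, which was -0.1 with normexp background correction, and it counts Csf1 by its brightest probe. For serum against no serum the median of the 9 genes was 0.34, where the median over all probes was -0.02. The comparisons share arrays with each other, so their values are not independent. In RNA of whole plates, a drop in the number of cells that express a gene cannot be told apart from less RNA per cell.

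**Figure D1:**
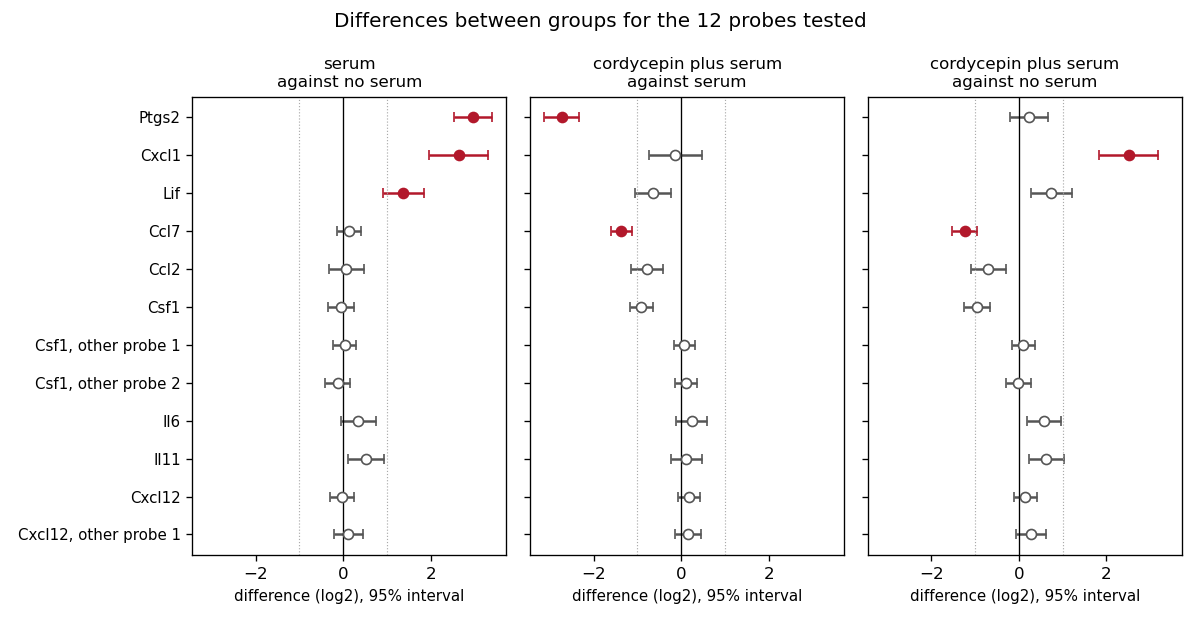
Log2 differences with 95% intervals (horizontal bars) for the 12 tested probes of the 9 tested genes, in 3 panels, 1 for each comparison. Filled red points are probes called, with an adjusted p under 0.05 and a log2 difference beyond the dotted lines at 1 and -1. Ptgs2 lies far to the right in the serum panel (2.96) and far to the left in the cordycepin panel (-2.73), while Cxcl1 lies near 0 (-0.13) in the latter.

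Ptgs2 showed the largest serum and the largest cordycepin difference of the 9 genes. Its probe, at chr1:151954744-151954803 of build mm9, was printed as 10 spots per array, and the SD over these spots was 0.04 to 0.09 on the log2 scale. The arrays without serum gave 2.88 and 2.64, and the serum arrays gave 5.89, 5.69 and 5.58. The cordycepin plus serum arrays gave 2.81, 3.33 and 2.84. The serum arrays stood clear of all others, and the cordycepin arrays overlapped those without serum. Ptgs2 was 7.77-fold higher with serum than without (log2 difference 2.96 ± 0.19, SE; limma adjusted p = 0.000315). It was 6.62-fold lower with cordycepin plus serum than with serum (-2.73 ± 0.17; limma adjusted p = 3.13e-05). Cordycepin plus serum against no serum gave 0.23 ± 0.19, with a 95% interval of -0.21 to 0.67 (limma adjusted p = 0.471).

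**Figure D2:**
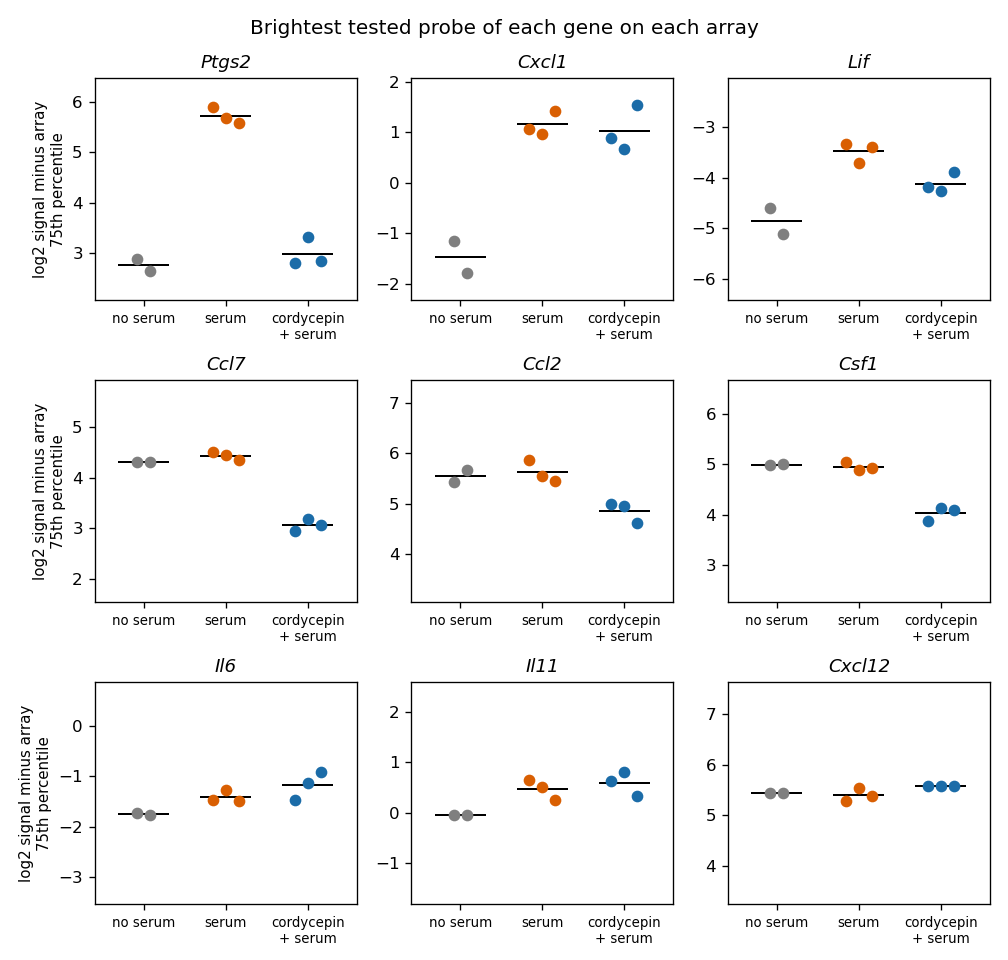
Normalised log2 intensity (log2 processed signal minus the 75th percentile of the array) of the brightest tested probe of each of the 9 tested genes. Each point is an array, coloured by group, and the black line is the group mean; every panel spans the same log2 range. Ptgs2 on the cordycepin arrays lies between 2.81 and 3.33 and on the serum arrays between 5.58 and 5.89, whereas Cxcl1 lies between 0.66 and 1.53 and between 0.97 and 1.42.

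The 250 bases before the annotated start of Ptgs2 are shown because this gene moved most in both directions. The sequence is that of RefSeq in build GRCm38.p6, 5′ to 3′ on the strand of the gene, and capitals here and in the promoters that follow mark matches to 4 motifs on either strand: κB (the NF-κB site), AP-1 (TGANTCA), the CRE core bound by CREB-type factors (TGACG) and the CArG box bound by SRF. No capitals appear in it.
Ptgs2, chr1:150099781-150100030, plus strand: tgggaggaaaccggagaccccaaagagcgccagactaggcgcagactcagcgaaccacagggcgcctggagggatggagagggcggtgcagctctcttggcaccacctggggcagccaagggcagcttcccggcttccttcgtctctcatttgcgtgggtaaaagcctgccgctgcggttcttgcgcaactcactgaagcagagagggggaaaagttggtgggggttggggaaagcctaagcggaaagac
The 50 bases after the annotated start of Ptgs2, which were searched but are not shown, held 1 CRE core at bases 14 to 18.

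Cxcl1, which encodes a neutrophil chemokine, rose with serum and its values with cordycepin plus serum overlapped those with serum. Its probe at chr5:91321845-91321904 (mm9) gave -1.16 and -1.80 on the arrays without serum and 1.07, 0.97 and 1.42 on the serum arrays. The cordycepin plus serum arrays gave 0.89, 0.66 and 1.53. Both serum-treated groups stood clear of the arrays without serum and overlapped each other. Cxcl1 was 6.22-fold higher with serum than without (2.64 ± 0.29; limma adjusted p = 0.00385) and 5.70-fold higher with cordycepin plus serum than without serum (2.51 ± 0.29; limma adjusted p = 0.00084). The difference between cordycepin plus serum and serum was -0.13 ± 0.26, with a 95% interval of -0.73 to 0.48 (limma adjusted p = 0.777), so changes within that interval were not excluded with 3 arrays a group. It became 0.06 without cordycepin plus serum replicate 2 and 0.01 without serum replicate 3.

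Ptgs2 and Cxcl1 can also be set against each other within each array, which takes the scaling of the arrays out of the comparison. The Ptgs2 value minus the Cxcl1 value was 4.05 and 4.44 on the arrays without serum, and 4.82, 4.72 and 4.16 on the serum arrays. On the cordycepin plus serum arrays it was 1.92, 2.66 and 1.31. The log2 gap between these probes was thus smaller on all 3 cordycepin arrays than on the other 5. The gap alone does not say which of the genes changed, and it is given with no test because the pair was picked for it.

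Cxcl2, a close relative of Cxcl1 with the same receptor, was not measurable. Its probe at chr5:91334534-91334593 (mm9) lies 12689 bases from that of Cxcl1 and was well above background on 0 of the 8 arrays, with values between -8.02 and -7.21. It was not tested, and no level or direction can be given. The promoters of this neighbouring pair are shown together because Cxcl1 rose with serum while Cxcl2 stayed at background, and both hold a κB match close to the start.
Cxcl1, chr5:90890995-90891244, plus strand: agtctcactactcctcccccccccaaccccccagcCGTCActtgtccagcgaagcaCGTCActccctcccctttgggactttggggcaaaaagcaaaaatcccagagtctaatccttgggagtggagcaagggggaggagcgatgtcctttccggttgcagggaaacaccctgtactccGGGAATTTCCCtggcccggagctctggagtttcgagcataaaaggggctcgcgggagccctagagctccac
Cxcl2, chr5:90903649-90903898, plus strand: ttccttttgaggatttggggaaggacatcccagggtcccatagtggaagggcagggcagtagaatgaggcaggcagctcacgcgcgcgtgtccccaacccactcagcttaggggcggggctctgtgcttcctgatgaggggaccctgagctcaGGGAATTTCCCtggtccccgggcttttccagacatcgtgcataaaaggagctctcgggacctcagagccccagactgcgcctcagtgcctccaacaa
In Cxcl1 the κB match spans bases -71 to -61 and in Cxcl2 bases -97 to -87, in each case as overlapping matches on both strands with the same letters. Cxcl1 also holds CRE cores at bases -215 to -211 and -194 to -190.

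Lif, a cytokine of the Il6 family best known for holding embryonic stem cells undifferentiated, was the third gene that rose with serum. Its probe at chr11:4172032-4172091 (mm9) gave -4.59 and -5.12 without serum, and -3.34, -3.70 and -3.39 with serum. With cordycepin plus serum it gave -4.18, -4.27 and -3.89. The 3 groups did not overlap, and the cordycepin arrays lay between the other groups. Lif was 2.59-fold higher with serum than without (1.37 ± 0.20; limma adjusted p = 0.0139). It was 0.63 ± 0.18 lower on the log2 scale with cordycepin plus serum than with serum (limma adjusted p = 0.0426) and 0.74 ± 0.20 higher than without serum (limma adjusted p = 0.0426), both short of the minimum difference of 1 set for a call. The difference from serum was -0.10 with normexp background correction (limma adjusted p = 0.646), and its adjusted p was not under 0.05 in 8 of 19 alternatives, among them with no filter on dim probes (0.127) and without cordycepin plus serum replicate 1 (0.12) or 2 (0.122) or serum replicate 1 (0.133) or 3 (0.121). The difference from no serum missed it in 11 of 19, among them without no serum replicate 2 (0.48; adjusted p = 0.273). The probe was dim, with a processed signal of 15.9 to 61.7, and the serum call rested on no serum replicate 2. Without that array the difference was 1.11 (limma adjusted p = 0.103), and with normexp background correction it was 0.61 (adjusted p = 0.0967).

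The promoter of Lif is shown as that of the remaining gene that rose with serum, with an AP-1 match at bases -228 to -222 and a κB match at bases -178 to -169.
Lif, chr11:4257318-4257567, plus strand: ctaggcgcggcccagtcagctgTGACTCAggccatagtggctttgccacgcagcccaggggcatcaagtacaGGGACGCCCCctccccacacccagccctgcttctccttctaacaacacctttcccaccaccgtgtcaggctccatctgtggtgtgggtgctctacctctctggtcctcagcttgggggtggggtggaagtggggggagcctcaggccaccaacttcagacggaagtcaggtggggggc

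Il6 and Il11, the other members of the Lif family in the group, were not called in any comparison. Il6, a cytokine of inflammation and the acute phase, gave -1.72 and -1.77 without serum, -1.47, -1.27 and -1.49 with serum and -1.47, -1.13 and -0.91 with cordycepin plus serum, from 2 spots at chr5:30346367-30346426 (mm9). The serum and cordycepin arrays overlapped, and both lay above those without serum. The differences were 0.34 ± 0.17 for serum against no serum (limma adjusted p = 0.64) and 0.24 ± 0.15 for cordycepin plus serum against serum (adjusted p = 0.326). Il11, which acts on fibroblasts and blood cell precursors, gave -0.05 and -0.04 without serum, 0.65, 0.51 and 0.25 with serum and 0.62, 0.81 and 0.33 with cordycepin plus serum, at chr7:4724847-4724906 (mm9). As for Il6, both serum-treated groups lay above the arrays without serum and overlapped each other. Serum against no serum gave 0.51 ± 0.18 (limma adjusted p = 0.289), and cordycepin plus serum against no serum gave 0.63 ± 0.18 (limma adjusted p = 0.0479), below the minimum difference and with an adjusted p not under 0.05 in 9 of 19 alternatives. For cordycepin plus serum against serum the 95% interval was -0.12 to 0.59 for Il6 and -0.24 to 0.48 for Il11.

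The monocyte chemokines Ccl7 and Ccl2 showed another pattern, with like values with and without serum and lower values with cordycepin. The probe of Ccl7 at chr11:81860656-81860715 (mm9) gave 4.31 on both arrays without serum and 4.51, 4.45 and 4.35 on the serum arrays. The cordycepin plus serum arrays gave 2.95, 3.19 and 3.07, clear of all other arrays. Ccl7 was 2.58-fold lower with cordycepin plus serum than with serum (-1.37 ± 0.11; limma adjusted p = 8.28e-05) and 2.36-fold lower than without serum (-1.24 ± 0.12; limma adjusted p = 0.00035). Serum against no serum gave 0.13 ± 0.12, with a 95% interval of -0.15 to 0.40 (limma adjusted p = 0.998). When each array was centred on its spike-in probes, both Ccl7 calls were lost, with differences of -1.44 ± 0.53 (limma adjusted p = 0.0899) and -1.65 ± 0.59 (limma adjusted p = 0.0926). The differences were thus no smaller, and their SEs were larger.

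Ccl2 lies next to Ccl7, with probes 10006 bases apart, and was measured by 10 spots at chr11:81850650-81850709 (mm9), whose SD was 0.02 to 0.07. It gave 5.44 and 5.67 without serum, 5.87, 5.56 and 5.46 with serum and 5.0, 4.95 and 4.62 with cordycepin plus serum. All 3 cordycepin arrays lay below the other 5, as for Ccl7. The difference was -0.77 ± 0.16 against serum (limma adjusted p = 0.0101) and -0.70 ± 0.18 against no serum (limma adjusted p = 0.0324), below the minimum size for a call in both. The adjusted p against serum missed 0.05 with spike-in centring (0.786) alone, and that against no serum missed it in 7 of 19 alternatives, 4 of them single arrays left out. Serum against no serum gave 0.07 ± 0.18 (adjusted p = 1).

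Csf1, the macrophage growth factor, was represented by 3 probes that did not move together. The brightest, at chr3:107544333-107544392 (mm9) and assigned to the transcript NM_007778, was printed as 10 spots with an SD of 0.03 to 0.07. It gave 4.99 and 5.0 without serum, 5.05, 4.88 and 4.92 with serum and 3.88, 4.14 and 4.10 with cordycepin plus serum, and the cordycepin arrays lay below the other 5. The difference was -0.91 ± 0.11 against serum (limma adjusted p = 0.000794) and -0.95 ± 0.13 against no serum (limma adjusted p = 0.0016), just under the minimum size. The other probes are assigned to the transcript NM_001113530 and start 4188 and 4217 bases from the brightest, upstream of it on the minus strand, on which the gene lies. They overlap each other in sequence and are not independent.

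The first of these other probes gave 2.56 and 2.50 without serum, 2.58, 2.47 and 2.61 with serum and 2.65, 2.52 and 2.71 with cordycepin plus serum. The second gave 2.61 and 2.41 without serum, 2.36, 2.30 and 2.45 with serum and 2.42, 2.48 and 2.58 with cordycepin plus serum. All groups overlapped for the first probe, and the cordycepin and serum arrays overlapped for the second. Cordycepin plus serum against serum gave 0.07 ± 0.10 (limma adjusted p = 0.655) for the first and 0.12 ± 0.11 (limma adjusted p = 0.483) for the second. The direction for Csf1 with cordycepin therefore rested on the probe, and the median over its 3 probes gave 0.07.

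Within each array, the brightest Csf1 probe exceeded the first of the others by 2.43 and 2.50 without serum, by 2.32 to 2.47 with serum and by 1.23 to 1.62 with cordycepin plus serum. The gap thus narrowed by 0.98 on the log2 scale with cordycepin, with no overlap between arrays (exact permutation test, two-sided, p = 0.1, the smallest that 3 against 3 arrays allow; 0.225 adjusted over 9 such tests). Against the second probe the gap was 2.58 ± 0.11 (SD, n = 3) with serum and 1.55 ± 0.10 (SD, n = 3) with cordycepin plus serum, with the same exact p. A probe pair of Cxcl12 compared in the same way gave 1.30 ± 0.09 with serum and 1.32 ± 0.22 with cordycepin plus serum (SD, n = 3 each; exact permutation test, p = 0.8).

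**Figure D3:**
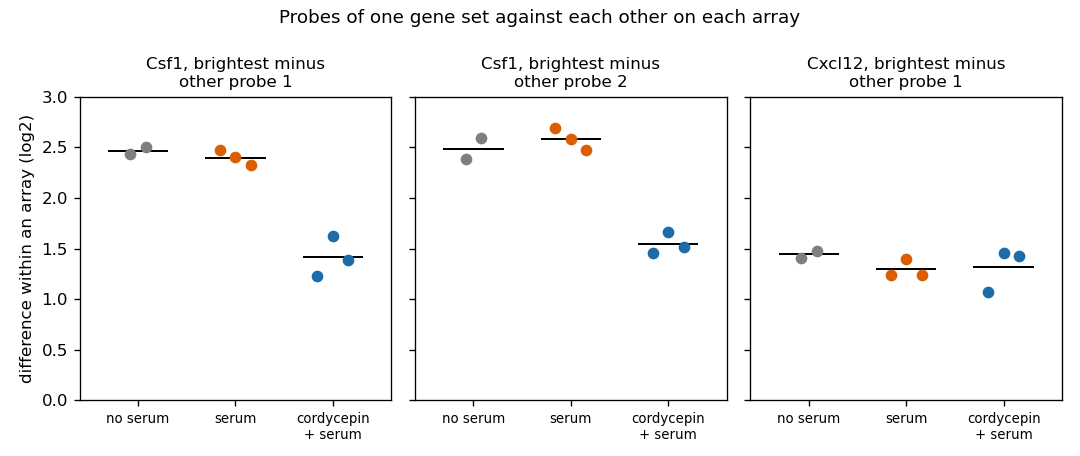
Log2 difference, within each array, between the brightest probe of a gene and each of its other tested probes, for Csf1 (2 pairs) and Cxcl12 (1 pair). Each point is an array and the line is the group mean. For Csf1 the 3 cordycepin plus serum arrays lie between 1.23 and 1.66 and the other 5 between 2.32 and 2.69, while for Cxcl12 all 8 arrays lie between 1.07 and 1.48.

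The annotated promoter of Csf1 is shown because the gene has a κB match, as Cxcl1 and Lif do, but was not called with serum.
Csf1, chr3:107760470-107760719, minus strand: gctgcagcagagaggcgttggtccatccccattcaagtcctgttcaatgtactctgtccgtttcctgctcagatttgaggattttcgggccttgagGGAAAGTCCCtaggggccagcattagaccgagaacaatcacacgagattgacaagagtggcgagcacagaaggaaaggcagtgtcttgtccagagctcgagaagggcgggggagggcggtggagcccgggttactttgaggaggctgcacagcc
Its κB match spans bases -154 to -145 and lies on the opposite strand.

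Cxcl12, the ligand of Cxcr4 and a constitutive product of many fibroblasts, did not pass the test in any comparison. Its brightest probe, at chr6:117131227-117131286 (mm9), gave 5.44 on both arrays without serum, 5.28, 5.54 and 5.39 with serum and 5.58, 5.59 and 5.59 with cordycepin plus serum. The cordycepin arrays lay just above the others, by 0.19 ± 0.11 against serum (95% interval -0.06 to 0.43; limma adjusted p = 0.264). A second probe, at chr6:117125026-117125085, was assigned to another transcript and gave 0.16 ± 0.13 (95% interval -0.14 to 0.46; limma adjusted p = 0.426). Changes of 1 on the log2 scale lay outside both intervals.

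Of the 10 genes, 8 had a promoter window in the RefSeq table, and Il11 had 2, which gave 9 windows of 300 bases, 250 before and 50 after the start. A κB match was found in 5 of them (Cxcl1, Cxcl2, Il6, Lif and Csf1), against 8.46% of all 32851 windows in the table. AP-1 was found in 3 (Il6, Lif and 1 window of Il11), against 7.81% of all windows. The CRE core was found in 4 (Cxcl1, Cxcl12, Il6 and Ptgs2), against 20.8%, and the CArG box in 0, against 1.63%. No matches of different motifs overlapped in these windows. Genes with a κB match included Cxcl1 and Lif, which rose with serum, Il6 and Csf1, which did not pass the test, and Cxcl2, which was at background. Ptgs2, with the largest rise, held none in this window. A match is a run of letters and not evidence that a factor binds there, and its absence speaks of this window alone.

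**Figure D4:**
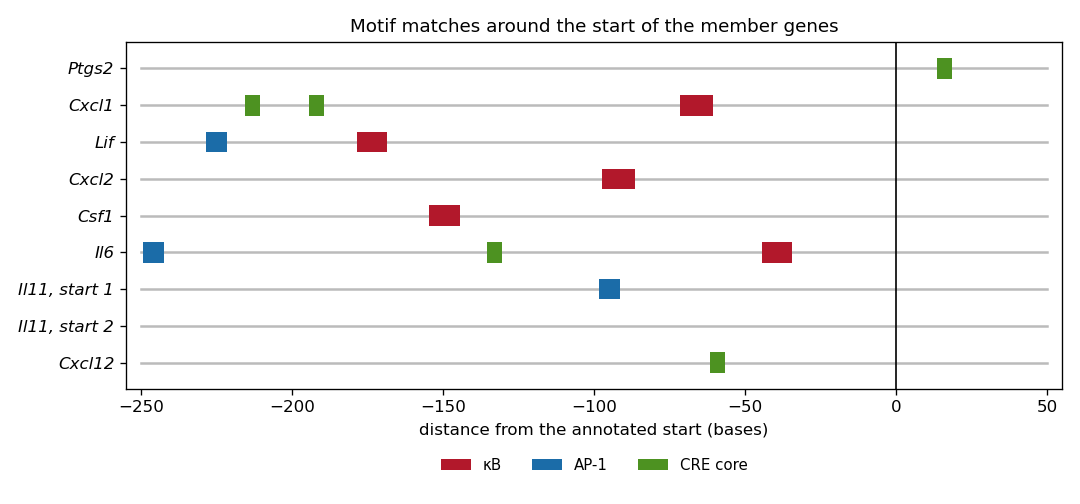
Motif matches on either strand in the 9 promoter windows of 8 genes, drawn by distance in bases from the annotated start (vertical line). Red blocks are κB matches, blue AP-1 and green the CRE core; the CArG box had 0 matches. κB blocks lie upstream of Cxcl1, Lif, Cxcl2, Csf1 and Il6, and the one block of Ptgs2 lies 14 bases after the start.

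Short-lived mRNAs of cytokines often carry the pentamer AUUUA near their 3′ end. The array probes are 60 bases long, and 5 of the 13 probes of the 10 genes held this pentamer (read as ATTTA), against 8.39% of 26732 probes for RefSeq mRNAs. It was found in a probe each of Ptgs2, Cxcl2, Il11, Lif and Cxcl12, the last of these being the less bright probe. The probes of Cxcl1, Ccl2, Ccl7, Il6 and Csf1 held none. Probes with and without it were found both for genes that rose with serum and for genes that did not. A probe covers 60 bases, so the lack of the pentamer in it does not speak of the rest of the transcript.

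For each of the 3 genes that rose with serum, the 3 other genes with the most similar values over the 8 arrays were listed. Over 13410 other genes, with Pearson's r as a description across arrays that include all groups, the closest to Ptgs2 were Egr1 (r = 0.993), a zinc finger transcription factor, Dusp1 (0.988), a phosphatase of MAP kinases, and the gene model Gm3383 (0.988). Egr1 differed by 1.51 between serum and no serum and by -1.38 between cordycepin plus serum and serum, and Dusp1 by 2.40 and -2.44. The closest to Lif were Nfkbiz (0.961), a regulator of NF-κB targets, and Fos (0.959) and Atf3 (0.956), which encode transcription factors of the AP-1 and ATF families. The closest to Cxcl1 were Alas1 (0.981), the first enzyme of haem synthesis, Fosb (0.959), a partner in AP-1, and Enpp3 (0.935). The differences of Alas1 were small, at 0.25 with serum and -0.01 with cordycepin, and those of Fosb were 7.91 and -1.67.

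The prostaglandin pathway around Ptgs2 was examined in 20 further genes, of which 15 were tested. With serum against no serum 0 were called in either direction by limma, and 1 was higher (Ptger4) and 1 lower (Tbxas1, thromboxane synthase) at an unadjusted p under 0.05 with the same minimum difference. Tbxas1 was above background on 3 arrays, the 2 without serum and 1 with cordycepin plus serum, so it was tested only because of the group in which it was high, and the arrays without serum gave -5.29 and -2.54. With cordycepin plus serum against serum, 1 of the 15 was called higher and 1 lower, beside 7.63% and 2.87% of all probes. The gene called lower was Ptger4, which encodes a receptor for prostaglandin E2. It gave -0.43 and -0.25 without serum, 1.51, 1.14 and 1.01 with serum and -0.36, 0.09 and -1.20 with cordycepin plus serum. The serum arrays lay above all others, as they did for Ptgs2. Ptger4 was 3.28-fold lower with cordycepin plus serum than with serum (-1.71 ± 0.30; limma adjusted p = 0.00507), and serum against no serum gave 1.56 ± 0.34, which missed the threshold (limma adjusted p = 0.0662). That value passed it under several other settings, among them with the row on the slide as a block (adjusted p = 0.0376) and without cordycepin plus serum replicate 3 (adjusted p = 0.0172).

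The gene of this pathway called higher was Tbxa2r, the thromboxane receptor, at 2.15 ± 0.15 against serum (limma adjusted p = 4.52e-05) and 2.58 ± 0.16 against no serum (limma adjusted p = 5.71e-05). Ptges, which encodes a prostaglandin E synthase that works beside cyclooxygenase 2, gave 0.70 ± 0.12 with cordycepin (limma adjusted p = 0.0042), below the minimum size. Ptgs1, the constitutive cyclooxygenase, gave 0.17 ± 0.11 with cordycepin and -0.09 ± 0.12 with serum, and neither value passed the test (limma adjusted p = 0.33 and 1).

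Of 32 other chemokines, 15 were tested and 16 were well above background on no array. Cxcl9, an attractant of T cells that is best known as an interferon-γ target, was the one chemokine of this list called in any comparison. It was above background on the 3 cordycepin plus serum arrays and on no other, and was at least 1.96-fold higher there than with serum (limma adjusted p = 0.0207) and at least 2.29-fold higher than without serum (limma adjusted p = 0.0259). As it passed the filter through the cordycepin arrays alone, its place among the tested genes was set by the group in which it was high. The calls were lost with normexp and without a filter on dim probes, and also when single arrays were left out, as without cordycepin plus serum replicate 1 (adjusted p = 0.0654 and 0.0689), without no serum replicate 2 (0.197 against no serum), and without serum replicate 1 (0.0662) or 2 (0.0567) against serum. The median log2 difference of the 15 tested chemokines was 0.19 with cordycepin plus serum against serum and -0.17 with serum against no serum.

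Of 23 other cytokines, 12 were tested. Cntf, a further ligand of the gp130 family that supports neurons, was 3.73-fold higher with cordycepin plus serum than with serum (1.90 ± 0.13; limma adjusted p = 5.11e-05), and its other tested probe gave 1.72 ± 0.15. Tslp, a cytokine of epithelia and stroma that acts on dendritic cells, was called higher with serum (1.01 ± 0.17; limma adjusted p = 0.0254) and with cordycepin plus serum against no serum (1.21 ± 0.17; adjusted p = 0.00227). Its serum call lay at the edge of the threshold and was lost when any of 5 arrays was left out: cordycepin plus serum replicate 2, serum replicate 1 or 2, or either array without serum, with adjusted p-values of 0.0539 to 0.145. Il34, the second ligand of the Csf1 receptor, was lower with cordycepin plus serum than without serum (-1.14 ± 0.14; limma adjusted p = 0.00124), though without no serum replicate 2 the difference was -0.97 and below the minimum size. Against serum it gave -0.97 ± 0.13 (limma adjusted p = 0.0011). Both ligands of that receptor, Csf1 by its brightest probe and Il34, thus had lower values on the cordycepin arrays, and Csf1r itself gave 0.52 ± 0.17 (limma adjusted p = 0.0741).

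Of 14 names listed as receptors for the products of these genes, 13 were on the array (Cxcr7 is an older name of Ackr3) and 7 were tested. By limma 0 were called in any comparison, and 0 at an unadjusted p under 0.05 with the same minimum difference. The 7 were Ackr3, Il6ra, Il6st, Lifr, Il11ra1, Csf1r and Osmr. At the adjusted p alone Il6ra, the receptor subunit that binds Il6, was lower with cordycepin plus serum than with serum (-0.59 ± 0.12; limma adjusted p = 0.0111). The shared subunit Il6st gave -0.07 ± 0.14 (limma adjusted p = 0.763). Medians of the receptor list were 0.05 with cordycepin plus serum against serum and -0.06 with serum against no serum.

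**Figure D5:**
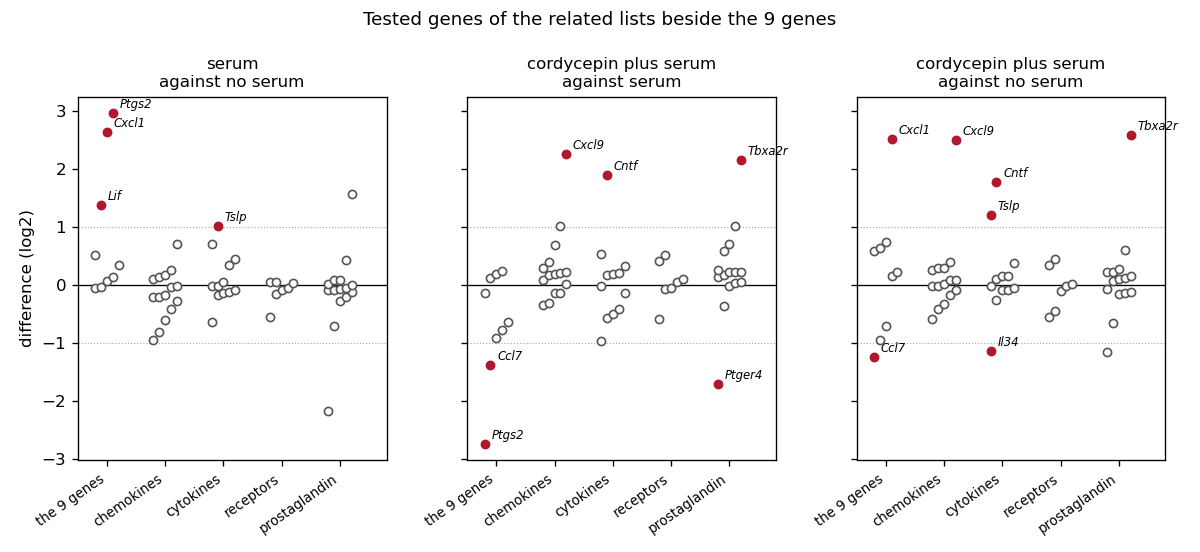
Log2 differences of the tested genes in the 9-gene group and in 4 related lists (15 chemokines, 12 cytokines, 7 receptors and 15 genes of the prostaglandin pathway), in 1 panel per comparison. Each point is the brightest tested probe of a gene, filled red and named where it was called. Most points of the related lists lie between -1 and 1 (dotted lines), with Ptger4 at -1.71 and Tbxa2r at 2.15 in the cordycepin panel.

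The leukocyte markers did not move together with cordycepin. Cd68, a lysosomal protein used to mark macrophages, gave 0.25 and -0.40 without serum, -0.04, -0.39 and 0.13 with serum and 3.05, 3.08 and 2.68 with cordycepin plus serum (3.04 ± 0.21 against serum; limma adjusted p = 5.17e-05). Of the 6 leukocyte markers on the array, 3 were tested and Cd68 was the one called. Itgam, an integrin subunit of myeloid cells, gave 4.03 and 3.58 without serum, 3.78, 3.70 and 3.92 with serum and 4.61, 4.42 and 4.27 with cordycepin plus serum, clear of the other 5 arrays (0.63 ± 0.15 against serum; limma adjusted p = 0.0219), below the minimum size. Cd14 gave a value in the other direction, at -0.28 ± 0.16 (limma adjusted p = 0.265). The log2 of the summed level of the 6 markers was 3.83 to 4.07 with serum and 4.71 to 5.04 with cordycepin plus serum. Without Cd68 it was 3.75 to 3.97 and 4.30 to 4.63, close to Itgam alone (3.70 to 3.92 and 4.27 to 4.61). The sum is thus set by its brightest probes and does not speak of the other markers. Ptprc, the defining marker of leukocytes, lay between -6.29 and -4.35 and was at background on 5 of 8 arrays. Any part of the Cd68 and Itgam differences in the lower values of Ccl2, Ccl7 and Csf1 on the same arrays was not tested.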

How the data were processed

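Total RNA was labelled with Cy3 and hybridised to 8 one-colour Agilent mouse arrays, 3 with cordycepin plus serum, 3 with serum and 2 with no serum, grouped by their labels. The deposited values are spot intensities that the authors extracted with Feature Extraction 10.7.3.1. The processed signal is the mean signal minus a fitted background surface, divided by a spatial trend, and 27.4% of non-control spots carry a surrogate value. The log2 of it was centred on the 75th percentile of each array's non-control spots. Outlier spots were left out and spots of a probe averaged. A probe was kept if all arrays of any group had it well above background (30859 of 55681), and the fit used limma 3.58.1 (R 4.3.3) with a mean for each group, no covariate and Benjamini-Hochberg adjustment over all of them. P-values were two-sided. A gene was read from its brightest tested probe, and other probes are given beside it. Changes shared by most transcripts cannot be seen after centring. Where a group was at background, a fold is a lower bound, from the lowest signal among probes well above background. The number of arrays limits the precision. The study describes the triplicates as independent. If they were not separate cultures, p-values measure the spread between these plates only.

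The 10 genes and the related lists were chosen with earlier results of these data known. All 10 genes were named by rule, and of the related lists every gene called; other genes named were picked after their values were seen. Alternatives were normexp, quantile normalisation, spike-in centring, other filters and thresholds, other samples in the fit, replicate number or slide row as a block, the median over probes and leaving out each array. On simulated data with 200 of 30859 probes changed by 2 on the log2 scale, the fit recovered 187 (cordycepin plus serum against serum), 176 (serum against no serum) and 177 (cordycepin plus serum against no serum), with 4 to 7 false calls. That setting does not speak of recovery at differences near or below the minimum of 1. Probe positions are in mm9. No annotation of that build was used, so their exon or UTR is not stated.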

Additional observations from a re-analysis of the deposited data

How the results depend on the processing

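Over 745 values of single genes under the alternatives, 683 kept their direction and their side of the threshold, 30 lost and 19 gained a call, and 13 changed sign, none of these among called values. The Ptgs2 calls held under all 19 alternatives, as did the Cxcl1 calls. Lif with serum was lost with normexp (0.61), spike-in centring (1.03, adjusted p = 0.855), no filter on dim probes (adjusted p = 0.0749), arrays of the 2 groups only (0.052) and without no serum replicate 2. Ccl7 was lost with spike-in centring. Cntf and Il34 against no serum were lost with it too (adjusted p = 0.271 and 0.134), and Tslp with normexp as well.

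Spike-in centring moved the median of all probes to -0.36 for serum and to -0.33 for cordycepin plus serum, each against no serum. Relative to no serum it turned serum values of Ccl2 (-0.27), Ccl7 (-0.22) and Il6 (-0.01), and cordycepin plus serum values of Cxcl12 (-0.27) and Ptgs2 (-0.18). The median over probes turned Csf1 with cordycepin (0.07 against serum, 0.08 against no serum) and Cxcl12 with serum (0.04). Leaving out an array gave -0.38 to 0.06 for Cxcl1 with cordycepin (above 0 without cordycepin plus serum replicate 2 or serum replicate 3), -0.11 to 0.03 for Cxcl12 with serum (above 0 without serum replicate 1) and -0.04 to 0.19 for Ccl2 with serum (below 0 without serum replicate 1 or no serum replicate 1).

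Among the 10 genes, those called lower with cordycepin plus serum against serum numbered 1 (Ptgs2) with spike-in centring and 5 with no minimum difference. Against no serum, those lower numbered 2 with normexp or quantile normalisation (Csf1 added), 0 with spike-in centring and 3 with no minimum difference, and 1 to 2 when an array was left out. Those higher numbered 3 with no minimum difference and 1 to 2 when an array was left out (Lif added without no serum replicate 1).

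Over all probes, counts higher and lower were as follows. For cordycepin plus serum against serum they were 919 and 402 with normexp, 1495 and 394 with spike-in centring and 3704 and 2271 with no minimum difference, and 1117 were higher among probes above background on all 8 arrays. For serum against no serum they were 171 and 59 with normexp, 48 and 130 with spike-in centring and 133 and 88 with no filter. Lower calls there numbered 142 on all 8 arrays, 611 at an unadjusted p and 149 with 2 groups only. Leaving out an array gave 122 to 244 higher (122 without no serum replicate 2) and 143 to 483 lower (143 without no serum replicate 2, 483 without no serum replicate 1). For cordycepin plus serum against no serum they were 1063 and 338 with normexp and 775 and 572 with spike-in centring. There, 1022 were higher on all 8 arrays and 1837 lower with no minimum difference. The causes were not tested.

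The deviations of same-numbered arrays of different groups correlated with r of -0.17 to 0.23 over 7 pairs, 2 of 7 over 0.1. Of the 8 arrays, 3 correlated best with an array of their own number. So few values do not show a pairing by number and cannot exclude one. With the replicate block, Ptger4 with serum gained a call (1.80, adjusted p = 0.0324) and no other call of a named gene changed. For Ptgs2 the block gave -2.73 for cordycepin plus serum against serum and 3.03 for serum against no serum. Depth has no direct measure on arrays. Lif and Cxcl9 lay close to background, where normexp gave smaller differences, and Cxcl2 was at background throughout.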
